A study of Mus musculus with 12 samples.

Results

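The expression of 10 imprinted genes that control growth was examined in LSKs (Lin- Sca-1+ c-Kit+ cells), the bone marrow fraction that holds hematopoietic stem cells (HSCs) and early progenitors. The genes were taken by symbol from the 53465 genes of the expression table and were H19, Igf2, Dlk1, Meg3, Rian, Mirg, Grb10, Peg3, Plagl1 and Ndn. RNA-seq libraries came from male mice of 8 to 10 weeks that were Tespa1+/+ littermates or homozygous for the B6.129S-Tespa1 tm1Smoc null allele (Tespa1-/-, over 6 generations of backcross to C57BL/6). Mice of each genotype were untreated or had received a single injection of 5-fluorouracil (5-FU), a drug that kills cycling cells, 9 days before LSKs were taken. The 4 groups held 3 libraries each, with 22118154 to 28275079 counts per library. The labels do not say whether libraries came from separate mice, so p-values measure the spread between these libraries.

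Imprinted genes are expressed mainly from the copy inherited from 1 parent. DNA methylation at CpG sites, set in the egg or sperm, marks the maternal and paternal copies apart. Many act on fetal growth, and genes expressed from the paternal copy often promote growth while maternally expressed ones often restrain it. In adult blood they are known for their activity in quiescent HSCs, where H19 and the Dlk1-Meg3 cluster have been tied to the restraint of growth signaling. The counts used here do not separate the parental copies, so they measure the total RNA of each gene.

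The 10 genes lie in several imprinted regions of GRCm38. The maternally expressed long noncoding RNA H19 (chr7:142575529-142578143, - strand) and Igf2, which encodes a fetal growth factor (chr7:142650766-142666816, - strand), are neighbors and share control elements. Dlk1 (chr12:109452823-109463336), which encodes a transmembrane ligand-like protein, lies on the + strand ahead of the noncoding genes Meg3 (chr12:109541001-109571726), Rian (chr12:109603940-109661716), the host of many snoRNAs, and Mirg (chr12:109729764-109749460), the host of many miRNAs. Grb10 (chr11:11930508-12038683, - strand) encodes an adaptor protein that dampens insulin and IGF receptor signaling. Peg3 (chr7:6703892-6730431, - strand) and Plagl1 (chr10:13060504-13131694, + strand) encode zinc finger proteins, and Ndn (chr7:62346569-62350262, + strand) encodes Necdin, a growth suppressor with a single exon.

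RefSeq windows from 250 bases before to 50 bases after a transcript start (GRCm38.p6) matched 9 of the 10 genes and gave 14 windows. H19 was not among them. Shown are both Grb10 windows, since Grb10 carried the clearest response, and the Peg3 window and the first Meg3 window, which were the 2 windows that held a cAMP response element (CRE, TGACGTCA, which reads the same on both strands). CpG sites, where imprints are written, are in capitals.
Grb10, chr11:12037371-12037670, - strand: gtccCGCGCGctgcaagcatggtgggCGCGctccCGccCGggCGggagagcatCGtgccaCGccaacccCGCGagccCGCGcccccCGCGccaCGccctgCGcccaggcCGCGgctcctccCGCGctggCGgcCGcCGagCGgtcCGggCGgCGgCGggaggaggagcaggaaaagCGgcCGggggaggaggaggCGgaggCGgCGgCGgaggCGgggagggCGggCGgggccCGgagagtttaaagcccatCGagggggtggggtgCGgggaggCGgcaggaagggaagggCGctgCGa
Grb10, chr11:12027922-12028221, - strand: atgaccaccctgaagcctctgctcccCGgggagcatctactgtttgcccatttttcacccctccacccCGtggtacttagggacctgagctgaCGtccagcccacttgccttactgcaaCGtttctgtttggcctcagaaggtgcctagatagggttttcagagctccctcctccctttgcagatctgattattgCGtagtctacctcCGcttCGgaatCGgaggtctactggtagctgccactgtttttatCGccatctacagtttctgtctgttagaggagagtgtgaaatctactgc
Peg3, chr7:6730370-6730669, - strand: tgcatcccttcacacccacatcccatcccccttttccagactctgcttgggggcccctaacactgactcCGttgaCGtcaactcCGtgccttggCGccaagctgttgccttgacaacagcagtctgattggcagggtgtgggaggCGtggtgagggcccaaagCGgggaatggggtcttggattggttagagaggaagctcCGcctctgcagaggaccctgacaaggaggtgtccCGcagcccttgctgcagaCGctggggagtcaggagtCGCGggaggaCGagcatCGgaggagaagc
Meg3, chr12:109540746-109541045, + strand: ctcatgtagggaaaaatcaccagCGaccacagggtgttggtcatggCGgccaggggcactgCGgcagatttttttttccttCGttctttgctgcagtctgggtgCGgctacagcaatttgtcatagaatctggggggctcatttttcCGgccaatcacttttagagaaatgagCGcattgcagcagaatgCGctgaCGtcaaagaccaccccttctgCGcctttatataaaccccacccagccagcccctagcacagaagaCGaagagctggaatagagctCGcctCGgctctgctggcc

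The first Grb10 window held 45 CpG sites and 80% G and C, more CpG sites than in 98.1% of the 32851 promoter windows of the table. The second held 9, against a median of 7 over all windows. The windows of Peg3 and Meg3 each held 13 CpG sites, and the CRE began at position -178 and at position -57 from the start, respectively. A CRE was found in 1.79% of all windows. The Rian window (chr12:109603695-109603994) held 0 CpG sites. An E-box (CACGTG) was found in the Plagl1 window alone of the 14, and in 7.15% of all windows. The YY1 motif AAGATGGC, sought on both strands, was in none of the 14 and in 2.75% of all windows. DNA methylation and factor binding were not measured here.

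Grb10 was the most abundant of the 10 genes in these LSKs with a mean of 22.7 CPM, and the other 9 had means of 1.88 CPM or less. Levels were compared between genes as CPM (read counts scaled to library size with TMM factors) per kb of exon, averaged over the 12 libraries. Grb10 stood at 2.49 CPM per kb, above 73.3% of the 39959 detected genes. Ndn, at 0.408, had the next highest mean of the 10 in each of the 4 groups. The means of the other 8 genes lay between 0.0154 (Mirg) and 0.15 CPM per kb (H19), and their order changed with the group, so it is not a ranking. H19 went from 0.274 in untreated Tespa1+/+ LSKs, where 1 library held 38 of its 45 counts, to 0.0264 in Tespa1+/+ LSKs after 5-FU, and Igf2 from 0.0651 in the first of these groups to 0 in Tespa1-/- LSKs after 5-FU. In raw counts, Grb10 had 203 to 1075 reads per library, Ndn 22 to 64 and Meg3 14 to 69, while the other 7 genes had at most 54. Counts of 3 or fewer, 0.106 to 0.136 CPM depending on the library, were treated as the detection limit for counting error only. Rian and Dlk1 exceeded it in 11 of the 12 libraries, Peg3 in 10, Plagl1 in 9, H19 in 7, Igf2 in 4 and Mirg in 3.

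**Figure D1:**
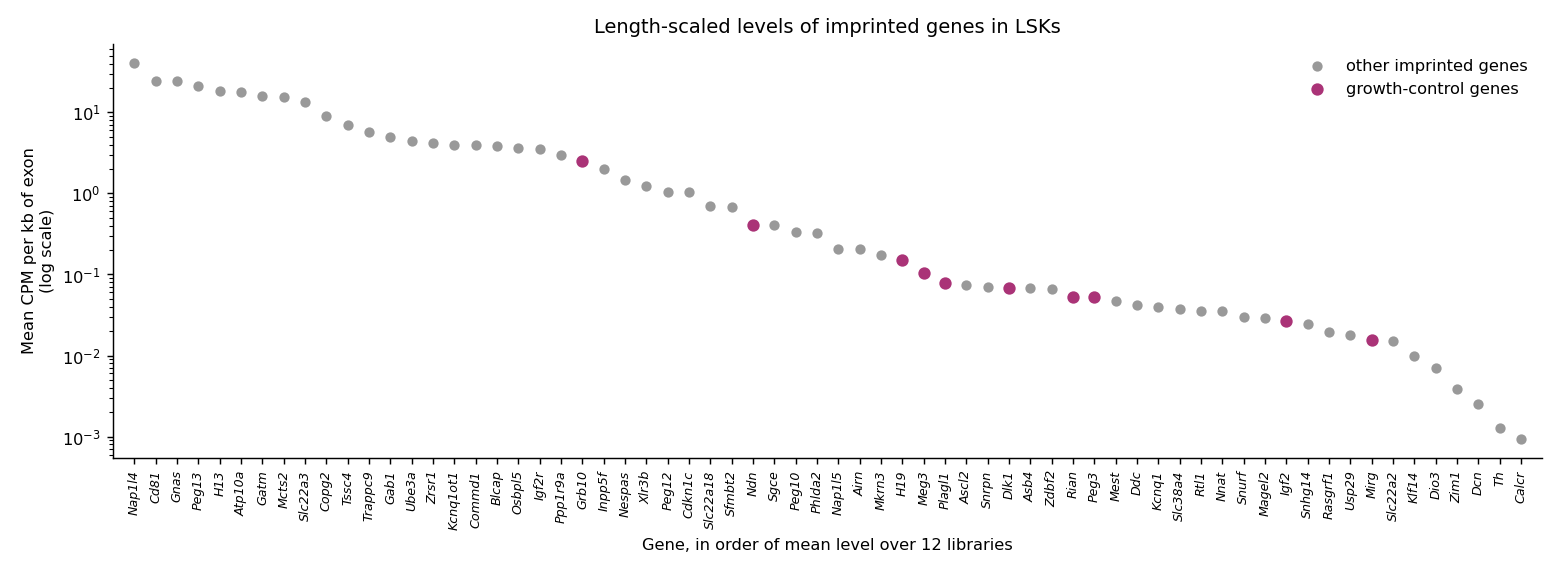
Mean CPM per kb of exon over the 12 libraries (log scale) for the 10 growth-control genes (purple) and the other imprinted genes measured (gray), ordered by level. Grb10 at 2.49 is the highest of the 10 and Mirg at 0.0154 the lowest; Kcnk9 and Ins2, with no counts, are not drawn.

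Among the other imprinted genes, 30 of 58 had a mean of at least 1 CPM and 22 at least 10 CPM, compared with 3 and 1 of the 10 growth-control genes. Whether each of these genes is imprinted in LSKs was not measured, since the counts do not separate the parental copies. Kcnq1ot1, a long noncoding RNA antisense to Kcnq1, was the most abundant by reads, with a mean of 372 CPM. At the other end, 6 of the 58 (Snurf, Kcnk9, Dio3, Calcr, Ins2 and Th) did not exceed the detection limit in any library.

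The libraries were first checked against their labels. Tespa1 was lower in Tespa1-/- LSKs, at 34.8 ± 0.225 against 46.8 ± 3.95 CPM (SD, n = 3) when untreated (log2 fold change -0.42, SE 0.09, edgeR adjusted p = 0.0316) and at 19.2 ± 1.76 against 53.1 ± 5.34 CPM after 5-FU (-1.47, SE 0.12, adjusted p = 9.38e-05). The untreated difference was not called in 5 of the 6 fits that left out 1 library (all but that without Tespa1+/+ library 2). Tespa1 reads remained in every Tespa1-/- library, and which exons the allele removes was not given in the sources used here. Summed markers of LSKs and HSCs (11 genes, among them Kit, Ly6a and Cd34) were present throughout, at 1942 to 2036 CPM in untreated Tespa1+/+, 1640 to 1655 in untreated Tespa1-/-, 1628 to 1658 in Tespa1+/+ after 5-FU and 1058 to 1141 in Tespa1-/- after 5-FU. Single members moved in both directions. With 5-FU, Flt3 and Cd34 were called lower and Slamf1 and Mecom higher in both genotypes. Procr was also called higher and Cd48 lower in Tespa1-/- LSKs.

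Markers of other cells moved with the groups. The 11 neutrophil markers summed to 0.769 to 1.6, 4.7 to 5.86 and 3.66 to 8.4 CPM in those first 3 groups and to 1052 to 1058 CPM in Tespa1-/- LSKs after 5-FU. Camp, Ltf, Cd177 and Ly6g were at or under the detection limit in untreated Tespa1+/+ LSKs, and 10 of the 11 neutrophil markers rose in Tespa1-/- against Tespa1+/+ LSKs after 5-FU. The 10 erythroid markers ran from 102 to 163 CPM in the first 3 groups and from 560 to 579 in Tespa1-/- after 5-FU, where all 10 rose. Megakaryocyte markers (7 genes) summed to 46.5 to 81.7 CPM in untreated LSKs and to 174 to 265 CPM after 5-FU, with 4 and 6 of the 7 called higher in Tespa1+/+ and Tespa1-/- LSKs. B cell markers (7 genes) stood at 42.1 to 77 CPM untreated and 285 to 343 CPM after 5-FU. Stromal markers (12 genes) were at 42.4 to 77.8 CPM with Lum at or under the limit in every group, and members moved in both directions with 5-FU. Pdgfrb, the most abundant of them in untreated LSKs, fell from 59.4 to 33.6 CPM in Tespa1+/+ and from 64.1 to 25.5 CPM in Tespa1-/- LSKs, while Col1a2 rose in both (8.32-fold and 7.02-fold) and Fn1 in Tespa1-/- LSKs (9.33-fold). Endothelial markers (8 genes) went from 141 to 158 CPM untreated to 202 to 235 CPM after 5-FU, with Tek and Vwf called higher in both genotypes and Cdh5, Stab2 and Pecam1 called lower in Tespa1-/- LSKs. Vwf, also on the megakaryocyte list, went from 16.2 to 89.3 CPM there. The sum of the T cell markers (7 genes) went from 34.4 to 40.9 CPM untreated to 18.3 to 26 CPM after 5-FU, mostly through Lck (31.6 to 18.2 CPM in Tespa1+/+ and 30.8 to 15 CPM in Tespa1-/- LSKs). Cd3e was called higher in Tespa1-/- LSKs after 5-FU, with 38, 19 and 14 counts against 0 in the untreated Tespa1-/- and the treated Tespa1+/+ libraries. The sort gate removes cells that carry surface markers of mature lineages. In bulk samples, fewer cells of a type and less RNA per cell cannot be told apart. The part of these markers in the results below was not tested.

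**Figure D2:**
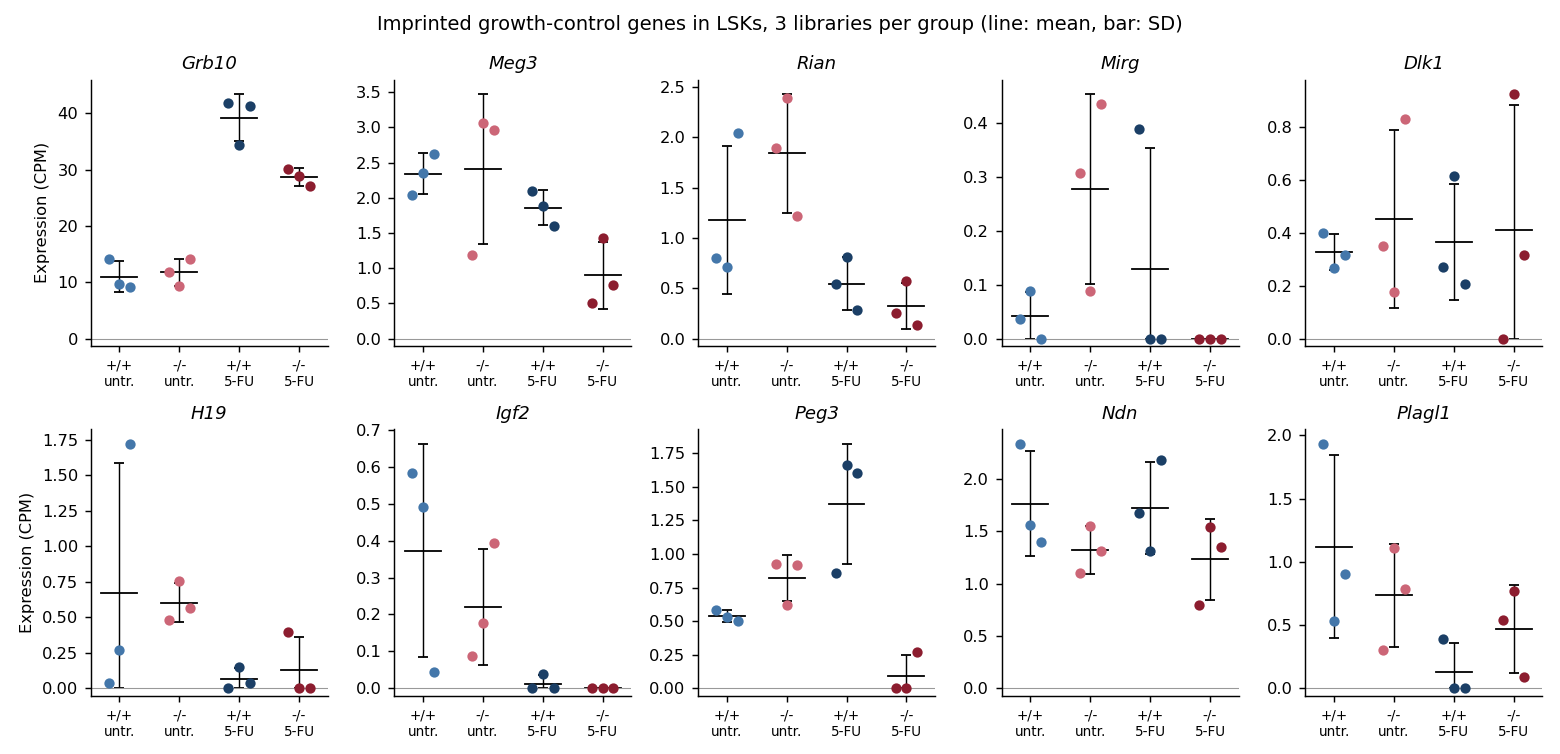
Expression (CPM) of the 10 growth-control genes in each library of Tespa1+/+ and Tespa1-/- LSKs, untreated (untr.) or 9 days after 5-FU. Points are libraries, lines are means and bars are SD, not drawn below 0; Grb10 lies between 27 and 41.8 CPM after 5-FU and at most at 14.2 CPM before, and Peg3 is at 0 in 2 of the 3 Tespa1-/- libraries after 5-FU.

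To assess whether 5-FU stress altered these genes, treated and untreated LSKs were compared within each genotype. Grb10 rose in both genotypes. In Tespa1+/+ LSKs Grb10 was at 14.2, 9.66 and 9.18 CPM in the untreated libraries and at 41.8, 34.4 and 41.3 CPM after 5-FU. In Tespa1-/- LSKs the untreated libraries stood at 11.8, 9.35 and 14.2 CPM and the treated ones at 30.1, 28.9 and 27 CPM. Every treated library was above every untreated one, as for 13.2% of all genes tested in Tespa1+/+ and 19.8% in Tespa1-/- LSKs. Treated libraries all lay below the untreated ones for 15.5% and 18.8% of genes, respectively. The increase was 3.6-fold in Tespa1+/+ (log2 fold change 1.85, SE 0.19, adjusted p = 0.000439) and 2.43-fold in Tespa1-/- LSKs (1.28, SE 0.16, adjusted p = 0.000782), and it was called in each of the 6 fits per genotype that left out 1 library and in the 7 other alternative fits. Grb10 was the 1 gene of the 6 tested that was called higher in Tespa1+/+ LSKs, where 3.77% of the 17002 genes tested were higher, and the 1 of 7 called higher in Tespa1-/- LSKs, where 10.7% of 17228 were higher.

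With edgeR, Rian was the 1 gene of the 7 tested that fell with 5-FU in Tespa1-/- LSKs, while DESeq2 called Rian and Peg3 lower, as it did 10.3% of all genes. Untreated Tespa1-/- libraries held 1.89, 2.39 and 1.22 CPM of Rian (43, 54 and 28 counts) and the treated ones 0.254, 0.578 and 0.135 CPM (7, 15 and 3 counts). These ranges did not overlap. The log2 fold change was -2.48 (SE 0.60, adjusted p = 0.0199), in a comparison where 8.64% of all genes tested were lower. The call was lost without untreated Tespa1-/- library 1 (adjusted p = 0.0719), without untreated Tespa1-/- library 2 (0.0988) and without treated Tespa1-/- library 1 (0.0609). In Tespa1+/+ LSKs Rian was at 1.18 ± 0.739 CPM untreated and 0.547 ± 0.26 CPM after 5-FU (SD, n = 3), ranges that overlapped (log2 fold change -1.09, SE 0.72, adjusted p = 0.445). The difference between the genotypes in this response did not pass the test (interaction -1.38, SE 0.94, adjusted p = 0.485).

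Meg3 and Mirg are transcribed in the same direction as Rian. Meg3 did not pass the test with 5-FU in either genotype, and Mirg did not pass the filter on low counts. Meg3 in Tespa1-/- LSKs was at 1.19, 3.06 and 2.97 CPM untreated and 0.508, 1.43 and 0.765 CPM after 5-FU. The groups overlapped, because untreated library 1 lay below treated library 2 (log2 fold change -1.42, SE 0.53, adjusted p = 0.0982). In Tespa1+/+ LSKs Meg3 stood at 2.34 ± 0.291 and 1.86 ± 0.248 CPM (-0.31, SE 0.38, adjusted p = 0.705). Mirg had 7, 2 and 10 counts in untreated Tespa1-/- libraries and 0 in all 3 after 5-FU. Set against the detection limit of 3 counts per library, the treated level was at least 2.06-fold lower than the untreated mean (adjusted p = 0.101 in a fit without the filter). This bound was 1.47-fold without untreated library 3, and untreated library 2 was itself under the limit. In Tespa1+/+ LSKs Mirg had 1, 2 and 0 counts untreated and 10, 0 and 0 after 5-FU, so 1 library held all treated reads (ratio of sums 3.16, 95% counting interval 0.813 to 17.9, adjusted p = 0.756 without the filter). Dlk1, at the other end of the cluster, ranged from 0.177 to 0.83 CPM untreated and from 0 to 0.924 CPM after 5-FU, with overlapping groups in both genotypes.

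H19 and Igf2 had few reads after 5-FU, but no change of either gene passed in a fit of all libraries of its comparison. H19 exceeded the detection limit in 1 treated library of each genotype. H19 in untreated Tespa1-/- libraries was at 0.483, 0.754 and 0.568 CPM, and after 5-FU at 0.399, 0 and 0 CPM. Untreated library 1 and treated library 1 both held 11 counts, and the change did not pass the test (log2 fold change -2.08, SE 1.16, adjusted p = 0.26). Without treated Tespa1-/- library 1, which held all 11 treated reads, the adjusted p was 0.0269, and the other alternatives ranged from 0.239 to 0.492. In Tespa1+/+ LSKs H19 had 1, 6 and 38 counts untreated and 0, 4 and 1 after 5-FU, and did not pass the filter on low counts (log2 fold change -3.26, SE 1.64, adjusted p = 0.42 in a fit without it). Its untreated reads came mainly from library 3. Igf2 had 16, 11 and 1 counts in untreated Tespa1+/+ libraries and 0, 1 and 0 after 5-FU (ratio of sums 29.6, 95% counting interval 4.89 to 1209). A fit without the filter, which includes the spread between libraries, gave an adjusted p of 0.354. In Tespa1-/- LSKs Igf2 had 2, 4 and 9 counts untreated and 0 in all 3 libraries after 5-FU, at least 1.63-fold lower against the limit (adjusted p = 0.135 without the filter). Without untreated library 3, which held 9 of the 15 counts, the untreated mean of 0.133 CPM was under the limit of 0.135 CPM and gave no bound. Igf2 shares 3596 exon bases with the overlapping gene Gm49394 on the same strand, so reads in these bases could be counted for either gene. Gm49394 had 0 counts in all 3 treated Tespa1-/- libraries and 4 to 22 in the other libraries.

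Treated Tespa1+/+ and Tespa1-/- libraries lay on opposite sides of the untreated libraries of their own genotype for Peg3. Libraries of the compared groups did not overlap for Peg3 in any of the 4 comparisons, nor for 25.5% (untreated genotypes), 33.1% (genotypes after 5-FU), 28.7% (5-FU in Tespa1+/+) and 38.6% (5-FU in Tespa1-/-) of all genes tested. Peg3 stood at 0.584, 0.534 and 0.498 CPM in untreated Tespa1+/+ and at 0.922, 0.621 and 0.918 CPM in untreated Tespa1-/- libraries. After 5-FU it stood at 0.856, 1.66 and 1.6 CPM in Tespa1+/+ libraries (22, 43 and 39 counts) and at 0, 0 and 0.27 CPM in Tespa1-/- libraries (0, 0 and 6 counts). The highest group was thus Tespa1+/+ after 5-FU and the lowest Tespa1-/- after 5-FU. The difference between treated and untreated LSKs was +1.36 on the log2 scale in Tespa1+/+ (SE 0.59, adjusted p = 0.226) and -3.22 in Tespa1-/- LSKs (SE 1.13, adjusted p = 0.0821), and neither passed the test across all genes. DESeq2 gave adjusted p = 0.0472 in Tespa1-/- LSKs. Without treated Tespa1-/- library 3, the 1 that held the 6 counts, the treated group was at 0 and the edgeR adjusted p was 0.0167. In the other alternatives it ranged from 0.0559 to 0.227, with 0.173 for no filter and 0.1 for the block. In Tespa1-/- LSKs Peg3 entered the test through its untreated counts alone. It was not tested there with at least 10 counts in every library.

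Plagl1 and Ndn completed the set. Plagl1 was at 1.93, 0.534 and 0.905 CPM in untreated Tespa1+/+ libraries and at 0.389, 0 and 0 CPM after 5-FU. These did not overlap (log2 fold change -3.04, SE 1.31, adjusted p = 0.221). In Tespa1-/- LSKs it stood at 0.734 ± 0.403 and 0.468 ± 0.346 CPM (-0.63, SE 0.80, adjusted p = 0.641). Ndn showed log2 fold changes of -0.02 (SE 0.45, adjusted p = 0.987) and -0.11 (SE 0.42, adjusted p = 0.892) in the 2 genotypes, with 95% intervals of -0.91 to 0.87 and -0.94 to 0.72. Of the 6 genes tested in Tespa1+/+ LSKs, 0 were called lower by edgeR or DESeq2, which called 4.18% and 6.23% of all genes lower. At an unadjusted p below 0.05, which 21.5% of all genes reached, Plagl1 was lower and Grb10 and Peg3 were higher. Igf2, Mirg and Dlk1 did not pass the filter in either genotype.

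**Figure D3:**
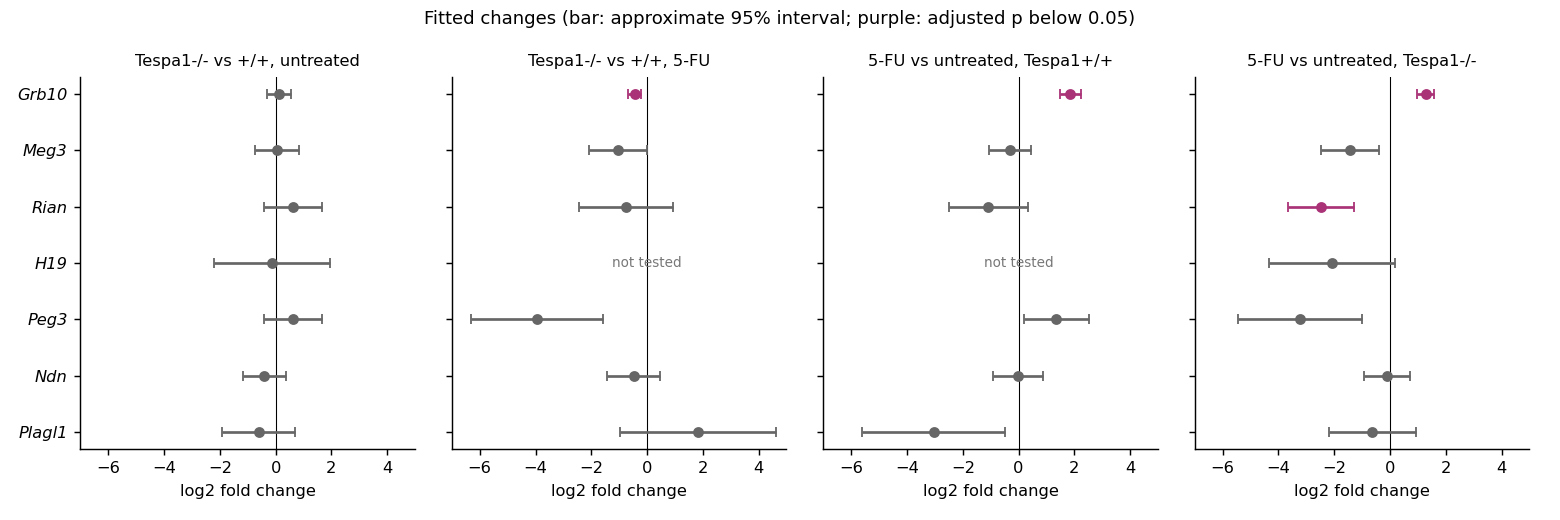
Fitted log2 fold changes with approximate 95% intervals for the 7 genes tested in at least 1 of the 4 pairwise comparisons. Purple marks an adjusted p below 0.05, reached by Grb10 in 3 comparisons and by Rian in Tespa1-/- LSKs after 5-FU.

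The genotypes were then compared within each treatment. In untreated LSKs, 7 of the 10 genes passed the filter and edgeR called 0 of them, with 0 at an unadjusted p below 0.05 and 0 by DESeq2. Of all 17055 genes tested, edgeR called 1.64% higher and 3.59% lower in Tespa1-/- LSKs, 18.5% had an unadjusted p below 0.05 and DESeq2 called 8.37%. For Grb10, Tespa1-/- LSKs averaged 11.8 ± 2.4 CPM, next to 11 ± 2.77 CPM in controls (log2 fold change 0.11, 95% interval -0.33 to 0.55). Peg3 was in all 3 Tespa1-/- libraries above the Tespa1+/+ libraries, as were 11.4% of all genes tested (log2 fold change 0.61, SE 0.53, adjusted p = 0.61). Mirg, which did not pass the filter, had 19 counts over the Tespa1-/- libraries and 3 over the Tespa1+/+ libraries (ratio 6.68, 95% counting interval 1.97 to 35.3), with 2 counts in 1 library of each genotype. A fit without the filter gave a log2 fold change of 2.58 (SE 1.49, adjusted p = 0.461). The H19 mean of Tespa1+/+ LSKs rested on the library with 38 counts, without which the log2 fold change turned from -0.14 to 2.0 (adjusted p = 0.341).

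After 5-FU, Grb10 was lower in Tespa1-/- than in Tespa1+/+ LSKs, at 28.7 ± 1.59 against 39.2 ± 4.13 CPM (SD, n = 3). The lowest Tespa1+/+ library (34.4 CPM) was above the highest Tespa1-/- library (30.1 CPM), a separation found for 15.9% of all genes tested. The log2 fold change was -0.45 (SE 0.12, adjusted p = 0.0355), a 1.37-fold difference. The call was lost with all 12 libraries in 1 fit (adjusted p = 0.112), with the replicate block (0.0701) and with no filter (0.0528). It held in 1 of the 6 fits that left out 1 library, the fit without Tespa1+/+ library 2 (adjusted p = 0.029). Without Tespa1+/+ libraries 1 or 3 the adjusted p was 0.107 or 0.109, and without Tespa1-/- libraries 1, 2 or 3 it was 0.0729, 0.0952 or 0.115. Grb10 was 1 of 6 genes tested, in a comparison where 5.78% of 17239 genes were lower and 7.34% higher. None of the 6 was called higher by edgeR or DESeq2 (9.44% of all genes), and DESeq2 called Grb10 and Peg3 lower, as it did 7.88% of all genes. At an unadjusted p below 0.05, which 26.7% of all genes reached, were Grb10 and Peg3, both lower.

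Peg3 had the largest fitted difference of the 6 genes tested. The values above correspond to a log2 fold change of -3.95 in Tespa1-/- against Tespa1+/+ LSKs after 5-FU (SE 1.20, 95% interval -6.30 to -1.60, edgeR adjusted p = 0.0611). Other fits passed, with an adjusted p of 0.00742 by DESeq2, 0.023 with all 12 libraries in 1 fit and 0.0168 without Tespa1-/- library 3, and the alternatives ranged up to 0.172. Peg3 entered this comparison through its Tespa1+/+ counts alone. It was not tested with at least 10 counts in every library. Leaving out Tespa1-/- library 3 removed the only Tespa1-/- reads, so that fit is no separate support. Meg3 libraries did not overlap either, like those of 33.1% of all genes, at 2.1, 1.89 and 1.6 CPM in Tespa1+/+ and 0.508, 1.43 and 0.765 CPM in Tespa1-/- LSKs (log2 fold change -1.05, SE 0.53, adjusted p = 0.248). Rian (-0.75, adjusted p = 0.646) and Ndn (-0.48, adjusted p = 0.587) overlapped, as did Plagl1 (1.82, SE 1.43, adjusted p = 0.476). In the same Tespa1-/- libraries the neutrophil and erythroid markers were at the high levels given above, and their part in these differences was not tested.

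Whether the response to 5-FU differed between genotypes was tested as an interaction over the 12 libraries. By edgeR 0 of 8 genes passed, compared with 5.01% of 18696 genes in either direction, with 2 at an unadjusted p below 0.05 (Grb10 and Peg3, 18.7% of all genes) and 1 by DESeq2 (Peg3, 8.21% of all genes). For Peg3 the interaction was -4.55 (SE 1.38, 95% interval -7.25 to -1.85, adjusted p = 0.0802, DESeq2 adjusted p = 0.00485). Without treated Tespa1-/- library 3, the 1 with Peg3 reads, it passed with edgeR (adjusted p = 0.00396), and the other alternatives ranged from 0.0801 to 0.159. For Grb10 it was -0.55 (SE 0.25, 95% interval -1.05 to -0.06, adjusted p = 0.258). The 2 genotype comparisons and the 2 treatment comparisons use the same libraries in part, so they are not independent of each other.

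The genes whose levels followed a growth-control gene most closely were listed for the 3 with the highest mean CPM, by Pearson's r of log2(CPM + 1) over the 12 libraries among 14934 genes. For Grb10 they included Itga6 (r = 0.97), an integrin subunit, and Cd9 (0.96), a tetraspanin. Itga6 averaged 52.6 and 53.9 CPM in untreated Tespa1+/+ and Tespa1-/- LSKs and 102 and 98.9 CPM after 5-FU. For Meg3 they were Tnfsf8 (0.92), which encodes CD30 ligand, the ribosomal protein gene Rpl12 (0.90) and Serf1 (0.89). For Ndn no gene exceeded 0.84 (Gm11131). These values describe 12 libraries that share 4 group means.

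Of the 58 other imprinted genes, 33 to 36 passed the filter in the pairwise comparisons. In untreated Tespa1-/- against Tespa1+/+ LSKs 2 rose and 4 fell, next to 1.64% and 3.59% of all genes (median log2 fold change of those tested -0.11, of all genes 0.01). Peg13, a noncoding RNA within Trappc9, fell from 146 ± 4.46 to 96.4 ± 4.3 CPM (log2 fold change -0.58, adjusted p = 0.00141). Kcnq1ot1 rose from 317 ± 4.25 to 397 ± 4.5 CPM (0.34, adjusted p = 0.00275). Gatm, an enzyme of creatine synthesis, rose (0.55, adjusted p = 0.013), and Zrsr1, Igf2r and Cd81 fell by 0.60, 0.45 and 0.36 on the log2 scale. The calls of Gatm, Zrsr1, Igf2r and Cd81 were each lost in at least 3 of the 6 fits that left out 1 library.

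After 5-FU 1 rose and 5 fell in Tespa1-/- against Tespa1+/+ LSKs, next to 7.34% and 5.78% of all genes (median -0.09, of all genes -0.01). Peg13 was again lower, at 56.9 ± 2.43 against 104 ± 3.66 CPM (log2 fold change -0.87, adjusted p = 8.88e-05). Atp10a, a phospholipid flippase, was at 65.9 ± 2.66 against 96 ± 4.36 CPM (-0.54, adjusted p = 0.0014), and Ppp1r9a, an actin-binding protein, at 31.3 ± 4.61 against 48.1 ± 1.13 CPM (-0.62, adjusted p = 0.0103). Sgce (-1.21, adjusted p = 0.0318) and Kcnq1ot1 (-0.21, adjusted p = 0.0195) also fell, calls that 5 and 4 of the 6 fits without 1 library lost. With 5-FU, 1 rose and 4 fell in Tespa1+/+ LSKs (median -0.10), next to 3.77% and 4.18% of all genes, and 2 rose and 3 fell in Tespa1-/- LSKs (median -0.07), next to 10.7% and 8.64%. Peg13 fell in both, by 0.47 and 0.76 on the log2 scale. Atp10a fell in Tespa1-/- LSKs from 112 ± 0.851 to 65.9 ± 2.66 CPM (log2 fold change -0.77, adjusted p = 4.03e-05). Kcnq1ot1 rose in Tespa1+/+ LSKs (0.41, adjusted p = 0.00158) and fell in Tespa1-/- LSKs (-0.15, adjusted p = 0.0246, lost in 4 of the 6 fits without 1 library). Cd81 fell in Tespa1+/+ LSKs (-0.35, adjusted p = 0.0394), a call lost in each of those 6 fits. Gnas, which encodes a G protein subunit, fell in Tespa1+/+ LSKs from 308 ± 6.59 to 246 ± 13.2 CPM, and Nespas rose in Tespa1-/- LSKs from 4 ± 0.205 to 6.98 ± 0.652 CPM, calls that 2 and 3 of the 6 fits without 1 library lost. In Tespa1+/+ LSKs Nespas went from 1.48 ± 1.17 to 5.92 ± 0.914 CPM, called by DESeq2 but not by edgeR. Peg13, Kcnq1ot1, Nespas and Zrsr1 lie within or across from other genes, and whether the counting used strand was not given in the sources used here.

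Igf2r, the receptor that clears IGF2, moved in opposite directions with 5-FU. It fell from 40.1 ± 2.46 to 25.7 ± 1.01 CPM in Tespa1+/+ LSKs (log2 fold change -0.63, adjusted p = 0.00917). In Tespa1-/- LSKs it went from 29.1 ± 1.19 to 36.5 ± 1.55 CPM (0.32, adjusted p = 0.0295), a call lost in 5 of the 6 fits that left out 1 library. The interaction was 0.96 (SE 0.13, adjusted p = 0.000714) and passed in all 18 alternative fits. Kcnq1ot1 had an interaction of -0.55 (SE 0.06, adjusted p = 0.000156), which also passed in all 18, and Atp10a one of -0.43 (adjusted p = 0.0334), which passed in 8 of 18.

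**Figure D4:**
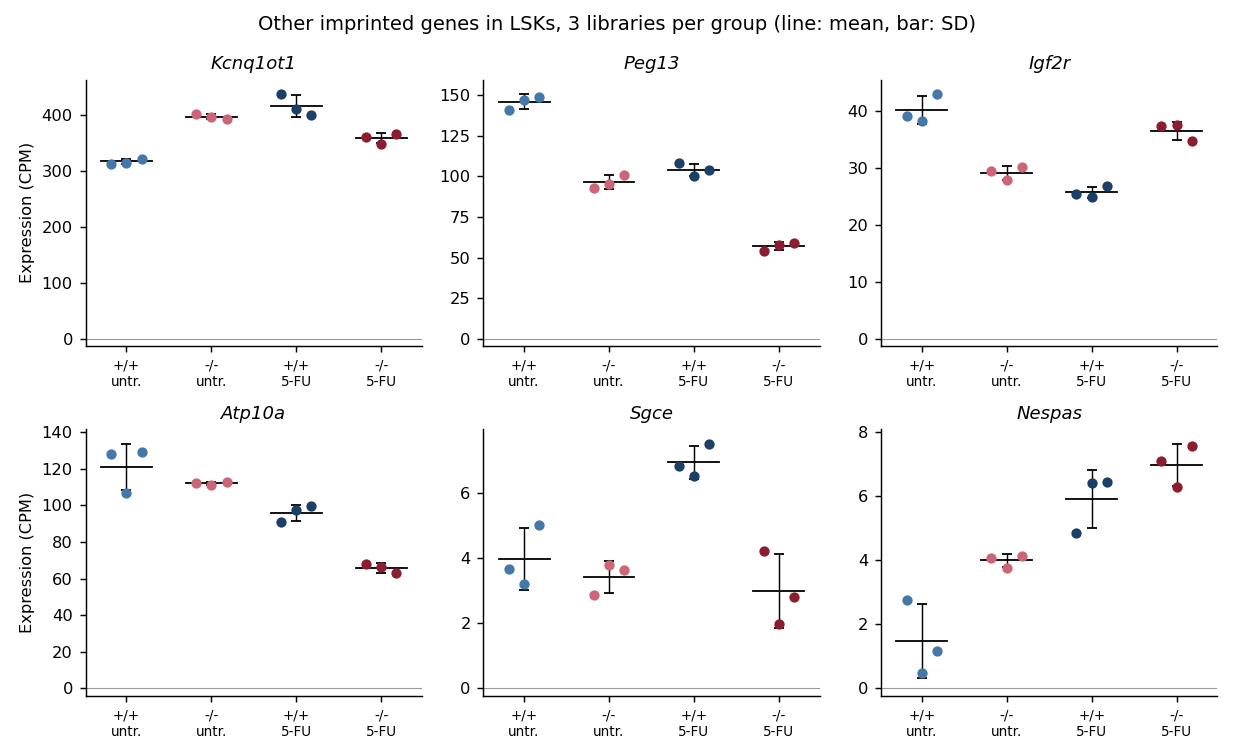
Expression (CPM) of 6 other imprinted genes in each library, by genotype and treatment (points are libraries, lines means, bars SD). Igf2r runs 40.1, 29.1, 25.7 and 36.5 CPM on average from left to right, and Peg13 is lowest in Tespa1-/- LSKs after 5-FU at 56.9 CPM.

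The insulin-like growth factor (IGF) pathway, on which Igf2, H19, Grb10 and Igf2r act, was examined through 21 further genes, of which 15 or 16 were tested. In untreated Tespa1-/- against Tespa1+/+ LSKs 0 rose by edgeR and 3 fell, next to 1.64% and 3.59% of all genes (median -0.16), and DESeq2 called 4, next to 8.37% of all genes. Irs2, a receptor substrate, fell from 146 ± 9.5 to 69.8 ± 4 CPM (log2 fold change -1.06, adjusted p = 0.000119) and Hmga2, a chromatin protein of fetal HSCs, from 48.4 ± 6.18 to 26.9 ± 2.25 CPM (-0.83, adjusted p = 0.00488). Foxo1 fell by 0.75 (adjusted p = 0.0199), a call lost in 4 of the 6 fits that left out 1 library. After 5-FU 2 fell, next to 5.78% of all genes (median -0.11), Hmga2 by 1.56 (adjusted p = 0.00148) and Pik3r1 by 0.24 on the log2 scale (adjusted p = 0.0143, lost in 3 of the 6 fits without 1 library).

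With 5-FU, 2 IGF pathway genes rose and 3 fell in Tespa1+/+ LSKs (median 0.02), next to 3.77% and 4.18% of all genes, and 3 rose and 4 fell in Tespa1-/- LSKs (median 0.11), next to 10.7% and 8.64%. Igf1r, the receptor for IGF1 and IGF2, rose from 213 ± 12.4 to 267 ± 15 CPM in Tespa1+/+ (log2 fold change 0.34, adjusted p = 0.0113, lost without treated library 1) and by 0.31 in Tespa1-/- LSKs (adjusted p = 0.00355). Irs2 fell by 0.79 in Tespa1+/+ LSKs (adjusted p = 0.000188). Foxo3 fell there too (-0.31, adjusted p = 0.0398), a call lost in each of the 6 fits without 1 library. In Tespa1-/- LSKs Foxo3 was also called lower (-0.22, adjusted p = 0.0402). That call was lost without untreated library 1 or 3 and without treated library 1 or 3. Hmga2 fell in Tespa1-/- LSKs from 26.9 ± 2.25 to 13.2 ± 3.44 CPM (-1.02, adjusted p = 0.00631). Foxo1 rose by 1.01 in Tespa1-/- LSKs (adjusted p = 0.000369), where Igfbp4, an IGF binding protein, fell by 0.60 (adjusted p = 0.00279). Igfbp4 was also called lower in Tespa1+/+ LSKs, from 533 ± 49.1 to 433 ± 26 CPM. That call was lost without untreated library 1 or 2 and without treated library 1 or 2. Lin28b, a fetal RNA-binding protein, had 0 counts in the 3 untreated Tespa1+/+ libraries and 21, 22 and 41 after 5-FU, at least 8.23-fold higher against the limit of 3 counts per library. The call (edgeR adjusted p = 0.0155) was lost with the replicate block and without treated library 1, 2 or 3. Untreated Tespa1-/- libraries held 14, 16 and 10 Lin28b counts. They were at least 4.33-fold above untreated Tespa1+/+ libraries against the same limit, a difference that edgeR did not call. Igf1 rose in Tespa1-/- LSKs (1.46, adjusted p = 0.0395), and 5 of the 6 fits without 1 library lost that call.

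Genes of imprint maintenance and DNA methylation (15 genes, 12 tested), called the imprint maintenance list, were examined last. The list holds factors with opposite actions on methylation, such as Dnmt1 and Tet1, so its counts do not measure maintenance alone. In untreated LSKs edgeR and DESeq2 called 0 between genotypes, with 1 at an unadjusted p below 0.05, next to 18.5% of all genes (median 0.02). After 5-FU 2 rose and 1 fell in Tespa1-/- LSKs, next to 7.34% and 5.78% of all genes (median 0.03). Dnmt1, the maintenance DNA methyltransferase, was at 755 ± 14.3 against 645 ± 13 CPM (log2 fold change 0.23, adjusted p = 0.00309). Tet1, which oxidizes methylcytosine, was at 45.8 ± 3.15 against 77.7 ± 5.46 CPM (-0.76, adjusted p = 0.000746). Uhrf1, which brings DNMT1 to its sites, rose by 0.16 (adjusted p = 0.0478), a call that each of the 6 fits without 1 library lost. With 5-FU 1 rose and 1 fell in Tespa1+/+ LSKs, next to 3.77% and 4.18% of all genes (median -0.01), Dnmt3a by 0.48 (lost without treated library 1 or 3) and Trim28, the corepressor at imprinted regions, by -0.39. In Tespa1-/- LSKs 0 rose by edgeR and 2 fell, next to 10.7% and 8.64% (median -0.01), Tet1 by 0.64 and Trim28 by 0.22, with 6 of the 12 at an unadjusted p below 0.05 and 3 called by DESeq2, next to 32.3% and 22.5% of all genes.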

How the data were processed

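RNA-seq of LSKs was analyzed in 4 groups of 3 libraries, grouped by the labels. The authors deposited raw read counts per gene and FPKM values. Per the labels, libraries were stranded and poly-A selected, and the submitters' processing notes name CASAVA 1.8, HISAT2, StringTie and edgeR with GRCm38. Whether counting used strand was not given in the sources used here. The deposited FPKM values imply lengths a median of 1.23 times the exon union of GENCODE M21, so levels per kb were computed from counts and that union.

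Counts were tested with edgeR 4.0.16 in R 4.3.3 (filterByExpr with a minimum count of 10, TMM, glmQLFit and glmQLFTest, Benjamini-Hochberg threshold 0.05) on the 6 libraries of each comparison, and on 12 for the interaction. Alternatives were DESeq2 1.42.0, other scaling and filters, a replicate block, 1 fit of all libraries and leaving out each library. Fits were tested on simulated counts. CPM use TMM.

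The 10 genes and the lists were chosen with earlier results of these data known. All 10 are named, and from the lists of imprinted, IGF pathway and imprint maintenance genes, up to 6, 4 and 4 per comparison by largest change among those called with at least 1 CPM. Zfp57, Igf1r and Foxo3 in Tespa1-/- LSKs, Igfbp4 and Nespas in Tespa1+/+ LSKs and genes listed at the detection limit were named after their values were seen. So were Lin28b in untreated Tespa1-/- LSKs and most individual cell type markers given with values or calls. A gene that the rule for similar expression patterns would name is not reported here.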

Additional observations from a re-analysis of the deposited data

Results flagged for a closer look

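Peg3 values lay in opposite directions in the 2 genotypes. With 5-FU they were higher in all 3 Tespa1+/+ libraries and lower in all 3 Tespa1-/- libraries than in every untreated library of the same genotype, and Tespa1-/- LSKs were above Tespa1+/+ LSKs when untreated and below them after 5-FU. Libraries of 25.5% to 38.6% of all genes tested did not overlap in these comparisons. The test of that difference, the interaction, gave -4.55 on the log2 scale (SE 1.38, adjusted p = 0.0802) and so did not pass with edgeR, while DESeq2 gave adjusted p = 0.00485. The treated Tespa1-/- libraries held 0, 0 and 6 Peg3 counts.

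For other genes the interaction, the genotype difference after 5-FU minus that in untreated LSKs, passed the test. Tespa1 itself had -1.05 on the log2 scale, since its reads were reduced further in Tespa1-/- LSKs after 5-FU. Among imprinted genes it was 0.96 for Igf2r, -0.55 for Kcnq1ot1 and -0.43 for Atp10a. Among IGF pathway genes it was 0.93 for Irs2, 0.74 for Foxo1 and -8.27 for Lin28b, a fitted value against a group with 0 counts that is no bound. On the imprint maintenance list, which also holds genes that act against methylation such as Tet1, it was 0.20 for Dnmt1 and -0.72 for Tet1. It was -2.99 for Zfp57, the zinc finger protein that holds methylation at imprinted regions. Zfp57 averaged 0.774 and 2.36 CPM in untreated Tespa1+/+ and Tespa1-/- LSKs and 3.09 and 1.19 CPM after 5-FU, and no pairwise comparison of it passed with edgeR (adjusted p from 0.0716 to 0.147), while DESeq2 called it higher with 5-FU in Tespa1+/+ LSKs. The interactions of Igf2r, Kcnq1ot1, Irs2, Tet1 and Tespa1 passed in all 18 alternative fits and that of Lin28b in all 17. Those of Atp10a, Dnmt1, Foxo1 and Zfp57 passed in 8, 4, 6 and 8 of 18. Neutrophil and erythroid markers were high in the treated Tespa1-/- libraries alone, and their part in these differences was not tested.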

How the results depend on the processing

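Of the growth-control genes, Grb10 kept its calls with 5-FU in both genotypes under every alternative. The number called lower in Tespa1-/- LSKs after 5-FU, 1 as reported, was 2 with DESeq2, 0 with no filter, 0 with the replicate block and 0 with a fold change above 1.5, and 0 to 1 when 1 library was left out. The number lower with 5-FU in Tespa1-/- LSKs, 1 as reported, was 2 with DESeq2, 0 with at least 10 counts in every library (Rian was then not tested), 3 at an unadjusted p with a fold change above 1.5 (6.58% of all genes), and 0 to 2 when 1 library was left out. In Tespa1+/+ LSKs the unadjusted rule gave 2 higher (6.33% of all genes) and 1 lower (3.54%). The interaction gave 1 lower with DESeq2 (3.56% of all genes), 1 with the unadjusted rule (6.22%) and 0 to 1 when 1 library was left out.

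Signs turned for small or sparse changes. With the replicate block H19 became 0.87 and Meg3 -0.05 in untreated LSKs, and with library totals Ndn became 0.03 with 5-FU in Tespa1+/+ LSKs. Leaving out 1 library gave, in untreated LSKs, -0.05 to 0.32 for Grb10, -0.71 to 2.0 for H19, -0.16 to 0.38 for Meg3 and -1.02 to 0.03 for Plagl1. With 5-FU it gave -0.23 to 0.22 for Ndn in Tespa1+/+ and -0.30 to 0.13 in Tespa1-/- LSKs. For the interaction it gave -1.70 to 0.48 for Dlk1, -3.61 to 2.62 for H19 and -0.32 to 0.14 for Ndn.

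Replicate numbers did not pair the libraries: correlations of same-numbered deviations ran from -0.05 to 0.03, and at most 1 of 3 libraries correlated best with its own number. The block moved the genes called between untreated genotypes from 280 higher and 612 lower to 116 and 338, and DESeq2 to 528 and 899. Of the 59 calls of other imprinted, IGF pathway and maintenance genes and Tespa1, 32 held in every alternative fit and no sign turned. Apart from Grb10, the genes rest on at most 69 counts per library, which limits what can be detected.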
